A study of Mus musculus with 12 samples.

Results

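The keratins that separate basal from luminal mammary epithelium were described in HC11 cells, an established line of mouse mammary epithelial cells, with and without a knockdown of Snail1, the transcription factor encoded by Snai1. The members were chosen by name. They were the basal keratins Krt5, Krt14 and Krt15 and the luminal or simple keratins Krt7, Krt8, Krt18 and Krt19, which makes 7 of the 57180 genes in the deposited table. Of these, 6 reached 1 TPM in 3 or more of the 12 libraries and were tested among 14426 genes that did so, and Krt19 did not pass. TPM is a transcript abundance corrected for the length of each gene and for the total of each library, so that levels of different genes can be set side by side.

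Cells of all groups were sorted and left overnight to aggregate in RPMI medium with 2% serum, EGF at 10 ng/ml and insulin at 5 µg/ml. They were used in an in vitro migration assay, with libraries at 0 h, before migration, and at 36 h. The 4 groups were Snail1 knockdown cells at 36 h, control cells at 36 h, knockdown cells at 0 h and control cells at 0 h, with 3 libraries each. The control libraries have "scr" in their titles and the genotype WT, and the genotype of the knockdown libraries is Snail1 KD. How the knockdown was made and whether it was 1 clone are not given in the sources used here. The title of control 36 h library 4 starts with "mix", a word left unexplained in the labels. Nothing in the labels states whether libraries of 1 group are separate cultures, and the p-values then cover just the spread between these samples, which may be technical.

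Keratins form the intermediate filaments of epithelial cells. Each filament is built from pairs of 1 type I and 1 type II keratin. Krt5 (type II) pairs with Krt14 (type I) in the basal cells of stratified and glandular epithelia, and Krt15 is another type I keratin of basal cells. Krt8 (type II) pairs with Krt18 (type I) in simple epithelia and in the luminal cells of the mammary gland, where Krt7 (type II) and Krt19 (type I) are also found. Snail1 is a zinc finger repressor that binds E-box sequences, best known for lowering E-cadherin in cells that lose epithelial character.

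The stretches upstream of the member genes are shown because E-boxes are the sequence that Snail1 is known to bind. RefSeq's table of promoters held 5 of the 7 members, on the build GRCm38.p6, while the submitters' processing notes name GRCm39 for the deposited values. Each sequence is the 250 bases before the gene's start, 5′ to 3′ on the gene's strand, and capitals mark the E-box CACCTG or its reverse complement CAGGTG, searched on both strands. The windows are chr15:101712906-101713155 on the minus strand for Krt5, chr15:101412153-101412402 on the plus strand for Krt7, chr15:102004343-102004592 on the minus strand for Krt8 and chr15:102027966-102028215 on the plus strand for Krt18.
Krt5: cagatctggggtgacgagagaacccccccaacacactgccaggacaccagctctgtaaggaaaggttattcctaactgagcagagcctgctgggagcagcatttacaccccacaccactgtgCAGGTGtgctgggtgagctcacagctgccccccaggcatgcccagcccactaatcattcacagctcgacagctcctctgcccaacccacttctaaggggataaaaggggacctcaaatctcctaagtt
Krt7: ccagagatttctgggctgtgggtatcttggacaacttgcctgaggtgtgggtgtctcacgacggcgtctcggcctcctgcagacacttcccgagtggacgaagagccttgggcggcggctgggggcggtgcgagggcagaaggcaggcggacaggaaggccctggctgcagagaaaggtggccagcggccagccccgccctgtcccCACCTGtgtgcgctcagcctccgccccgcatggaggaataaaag
Krt8: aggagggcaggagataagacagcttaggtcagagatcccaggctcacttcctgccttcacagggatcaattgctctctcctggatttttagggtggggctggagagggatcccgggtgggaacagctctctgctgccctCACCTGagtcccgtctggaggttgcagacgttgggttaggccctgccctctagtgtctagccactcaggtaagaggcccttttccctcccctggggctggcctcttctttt
Krt18: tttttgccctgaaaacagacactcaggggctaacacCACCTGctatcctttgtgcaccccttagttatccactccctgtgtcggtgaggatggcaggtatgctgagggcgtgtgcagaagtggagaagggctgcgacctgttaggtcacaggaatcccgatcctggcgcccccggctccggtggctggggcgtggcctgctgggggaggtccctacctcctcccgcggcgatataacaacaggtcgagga
Each of these windows held 1 match, which began 128 bases before the start of Krt5, 44 before Krt7, 111 before Krt8 and 214 before Krt18. Such a match was present in 17.2% of the 32851 windows of this length in the table. The start that the table gives for Krt14 lies 1480 bases inside the gene as annotated, so its window, which held no match, is not shown, and Krt15 and Krt19 were not in it. A match in these letters does not show that a factor binds there.

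Snai1 itself was low in all libraries. It had 0.58, 0.44 and 0.20 TPM in knockdown cells at 36 h, against 2.77, 2.69 and 3.92 TPM in control cells at 36 h. At 0 h it had 0.58, 0.79 and 0.48 TPM in knockdown cells, against 1.34, 2.51 and 1.69 TPM in control cells. The groups did not overlap at either time, and limma called Snai1 lower at both (log2 fold change -1.55, adjusted p = 0.0106 at 36 h, and -0.80, adjusted p = 0.0348 at 0 h). The call at 0 h was lost under median-of-ratios scaling (-0.51, adjusted p = 0.191 by limma). Throughout, log2 fold changes were computed after adding 1 to the TPM, which makes the change of rare transcripts look smaller, and "called" means an adjusted p under 0.05 over all tested genes.

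Knockdown 0 h library 2 stood apart from the rest. Mitochondrially encoded genes took 13.99% of its TPM, against 1.45% to 6.15% in the other libraries. Its median-of-ratios factor, which compares the typical gene with the mean of all libraries, was 0.507, against 0.902 to 1.22 elsewhere, and its median correlation with its own group was 0.861, against 0.894 to 0.969 elsewhere. The 8 mammary epithelial markers, 2 of which are Krt8 and Krt18, summed to 1402 to 1500 TPM in knockdown cells at 36 h, 1536 to 1748 TPM in control cells at 36 h, 483 to 1622 TPM in knockdown cells at 0 h and 2002 to 2017 TPM in control cells at 0 h. Summed markers of fibroblasts, immune cells, endothelium and adipocytes stayed at 24.4 TPM or lower in each library. Of their defining genes, Adipoq was at 0 in all libraries, and Col1a2, Lum, Ptprc, Adgre1, Cd3e, Cdh5, Kdr, Tek, Plin1 and Cidec were below 1 TPM throughout. Of the 22 markers of these other cells, 10 reached 1 TPM in some library, the highest being Cd68 (2.11 to 14.65 TPM), Fabp4 (3.47 to 13.84 TPM), Pdgfra (1.16 to 11.1 TPM), Col1a1 (1.40 to 10.3 TPM) and Pecam1 (0.41 to 6.98 TPM). Cd68, a lysosomal protein abundant in macrophages, fell over time in knockdown cells (log2 fold change -1.46, adjusted p = 0.0158 by limma) and in control cells (-1.68, adjusted p = 0.0142 by limma). The collagen genes Col1a1 at 0 h (-1.01, adjusted p = 0.0398 by limma) and Col3a1 at 36 h (-0.99, adjusted p = 0.0468 by limma) were called lower in knockdown cells, the first of these not without knockdown 0 h library 2 (adjusted p = 0.0749) and neither under median-of-ratios scaling (0.0900 for Col1a1 and 0.113 for Col3a1). Col3a1 would not have passed the filter without the control 36 h libraries, at 1.56, 1.40 and 1.25 TPM, so the filter favours that difference. The part of such cells in the results was not tested. Values without knockdown 0 h library 2 are given beside the results on the lineage keratins. Leaving it out altered the SE and adjusted p but not the log2 fold changes at 36 h and over time in control cells, since it is in none of those groups. In these bulk samples, fewer cells of a type and less RNA per cell cannot be told apart.

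The basal pair was the most abundant of the lineage keratins in each library. The order by TPM was Krt14, Krt5, Krt8, Krt18, Krt7 and Krt15 in all 12 libraries, with Krt19 at or near 0. Krt14 was among the most abundant of all genes, ranking between 1 and 3 in knockdown cells at 36 h, between 2 and 4 in control cells at 36 h, between 5 and 74 in knockdown cells at 0 h and between 6 and 8 in control cells at 0 h. The 7 keratins together held 2.22% of all TPM in knockdown cells at 36 h, 1.65% in control cells at 36 h, 0.705% in knockdown cells at 0 h and 0.878% in control cells at 0 h. Neighbours in the order did not overlap within 3 of the groups. In knockdown cells at 0 h the ranges of Krt8 and Krt18, of Krt18 and Krt7, and of Krt15 and Krt19 overlapped, and library 2 had the lowest Krt8, Krt18, Krt7 and Krt15 of that group.

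**Figure D1:**
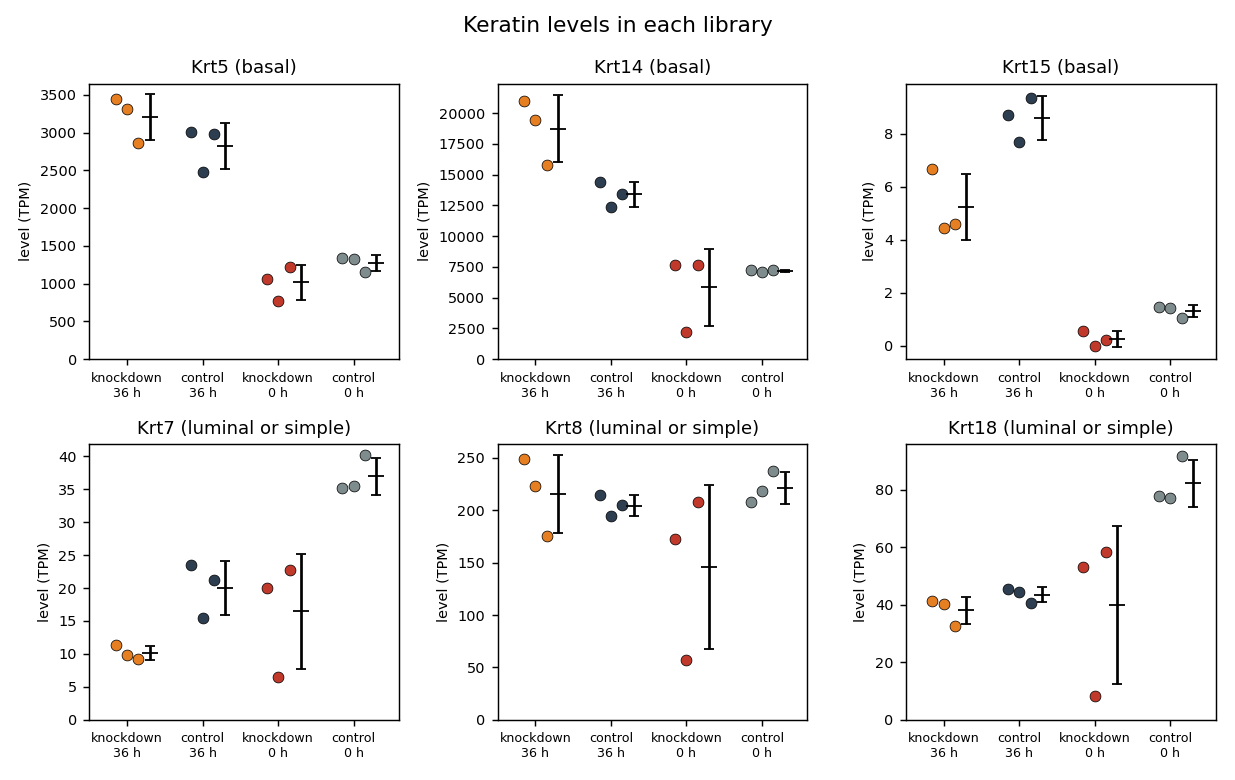
Level in TPM of each tested lineage keratin by library, in knockdown and control cells at 36 h and at 0 h. Points are the 3 libraries of a group, and the dash and bar beside them are the mean and SD. The basal keratins Krt5, Krt14 and Krt15 were higher in each 36 h library than in any 0 h library, and knockdown 0 h library 2 had the lowest Krt14 (2206 TPM), Krt8 (57.5 TPM) and Krt18 (8.43 TPM).

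Over the 36 h of migration the basal keratins were higher at the end in both kinds of cell. In knockdown cells Krt5, Krt14 and Krt15 all rose, and in control cells Krt5 and Krt15 rose. With all libraries, no luminal keratin passed the test over time in either kind of cell. Without knockdown 0 h library 2, Krt7 was called lower in both kinds of cell and Krt18 in control cells. The number of all tested genes called also moved with the library left out, as given under the dependence on the processing. The shares that follow are from the fit of all libraries and are no background for these luminal calls. In the fit of all libraries, 3 of 6 tested members were called higher in knockdown cells, where 0.998% of all tested genes were called higher (1.12% in either direction). In control cells 2 of 6 were called higher, where 0.25% of all tested genes were (0.36% in either direction).

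Krt5, the type II partner of Krt14, had 3449, 3306 and 2865 TPM in knockdown cells at 36 h, against 1062, 768 and 1222 TPM in knockdown cells at 0 h. In control cells it had 3011, 2473 and 2979 TPM at 36 h, against 1337, 1330.2 and 1148 TPM at 0 h. All 36 h libraries lay above all 0 h libraries. The ratio of the group means was 3.15 in knockdown cells (log2 fold change 1.68, SE 0.184, adjusted p = 0.00108 by limma) and 2.22 in control cells (log2 fold change 1.15, SE 0.184, adjusted p = 0.0231 by limma). The rise in knockdown cells was 1.49 on the log2 scale without knockdown 0 h library 2 (adjusted p = 2.01e-04 by limma), and that call was lost when the 2 groups were fitted alone (adjusted p = 0.101). In control cells the adjusted p was 7.29e-04 without knockdown 0 h library 2. The call in control cells was lost without any 1 control library (adjusted p between 0.0593 and 0.147) and without knockdown 36 h library 1 (0.0507) or 2 (0.0513), with log2 fold changes between 1.07 and 1.24. It was also lost without the filter on low values (adjusted p = 0.149 by limma).

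Krt14, the type I keratin that marks the basal layer, reached the highest levels of the set. It had 20984, 19468 and 15744 TPM in knockdown cells at 36 h, against 7662, 2206 and 7621 TPM in knockdown cells at 0 h. In control cells it had 14422, 12351 and 13389.6 TPM at 36 h, against 7233, 7051.5 and 7216 TPM at 0 h. The 36 h libraries lay above the 0 h libraries in both kinds of cell. Krt14 rose in knockdown cells, with a ratio of means of 3.21 (log2 fold change 1.88, SE 0.377, adjusted p = 0.0412 by limma). In control cells the ratio of means was 1.87 and the change was not called (log2 fold change 0.90, SE 0.377, adjusted p = 0.777 by limma). When knockdown 0 h library 2 was left out, Krt14 was called in both, at 1.28 in knockdown cells (adjusted p = 4.73e-04 by limma) and 0.90 in control cells (adjusted p = 0.00193 by limma). The call in knockdown cells was lost without any 1 of the control libraries or of the knockdown 36 h libraries (adjusted p between 0.0689 and 0.171), with log2 fold changes between 1.79 and 2.00. It was also lost without the filter (0.198), under median-of-ratios scaling (0.0566), under quantile normalization (0.122) and when the 2 groups were fitted alone (0.470).

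Krt15, a type I keratin of basal cells and of hair follicle stem cells, was the rarest basal member. It had 6.67, 4.45 and 4.61 TPM in knockdown cells at 36 h, against 0.57, 0 and 0.23 TPM in knockdown cells at 0 h. In control cells it had 8.72, 7.71 and 9.35 TPM at 36 h, against 1.47, 1.43 and 1.06 TPM at 0 h. It rose by 2.31 on the log2 scale in knockdown cells (SE 0.229, adjusted p = 4.86e-04 by limma) and by 2.05 in control cells (SE 0.229, adjusted p = 0.00430 by limma). Both calls held without knockdown 0 h library 2, with log2 fold changes of 2.15 and 2.05. The call was lost in knockdown cells when the 2 groups were fitted alone (adjusted p = 0.0636 by limma) and in control cells with a pseudocount of 0.1 TPM (adjusted p = 0.125 by limma).

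Krt7, a type II keratin of ducts and simple glandular epithelium, was the scarcest of the tested luminal members. It had 11.4, 9.79 and 9.25 TPM in knockdown cells at 36 h, against 20.1, 6.53 and 22.8 TPM in knockdown cells at 0 h. In control cells it had 23.5, 15.4 and 21.2 TPM at 36 h, against 35.2, 35.5 and 40.1 TPM at 0 h. The control groups did not overlap, the knockdown groups did, and neither change was called (log2 fold change -0.49, adjusted p = 0.415 in knockdown cells, and -0.87, adjusted p = 0.793 in control cells, by limma). Without knockdown 0 h library 2, whose Krt7 was the lowest at 0 h, the values were -1.01 in knockdown cells (adjusted p = 0.0156 by limma) and -0.87 in control cells (adjusted p = 0.0176 by limma), and both were called.

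Krt8, the type II keratin of simple epithelia, was the most abundant luminal member. It had 248.7, 223 and 175 TPM in knockdown cells at 36 h, against 172.5, 57.5 and 208 TPM in knockdown cells at 0 h. In control cells it had 214, 194 and 205 TPM at 36 h, against 207, 219 and 237 TPM at 0 h. The groups overlapped in both kinds of cell, and the log2 fold changes were 0.74 in knockdown cells (SE 0.381, adjusted p = 0.325 by limma) and -0.11 in control cells (SE 0.381, adjusted p = 1 by limma). Without knockdown 0 h library 2 the value in knockdown cells was 0.17 (adjusted p = 0.643 by limma), and the adjusted p in control cells was 0.766.

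Krt18, the type I partner of Krt8, had its highest levels in control cells at 0 h. It had 41.4, 40.1 and 32.65 TPM in knockdown cells at 36 h, against 53.3, 8.43 and 58.3 TPM in knockdown cells at 0 h. In control cells it had 45.6, 44.4 and 40.6 TPM at 36 h, against 78.0, 77.1 and 91.6 TPM at 0 h, with no overlap. The log2 fold change was 0.32 in knockdown cells (SE 0.542, adjusted p = 0.708 by limma) and -0.90 in control cells (SE 0.542, adjusted p = 1 by limma). Leaving out knockdown 0 h library 2 turned the value in knockdown cells to -0.55 (adjusted p = 0.0565 by limma), and the value in control cells, still -0.90, was called (adjusted p = 0.00300 by limma). Krt19, a type I keratin that lacks the usual tail, reached at most 0.42 TPM in knockdown cells at 36 h, 0.12 TPM in control cells at 36 h, 0.04 TPM in knockdown cells at 0 h and 0.22 TPM in control cells at 0 h.

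Among the tested members, the 36 h and 0 h libraries of knockdown cells did not overlap for the 3 basal keratins, all higher at 36 h, where 15% of all tested genes were so placed. In control cells the 3 basal keratins were higher without overlap, against 9.55% of all tested genes, and Krt7 and Krt18 were lower without overlap, against 12.3%. With 3 libraries against 3, the exact two-sided permutation test cannot go below p = 0.1, and each of these non-overlapping differences had that value.

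**Figure D2:**
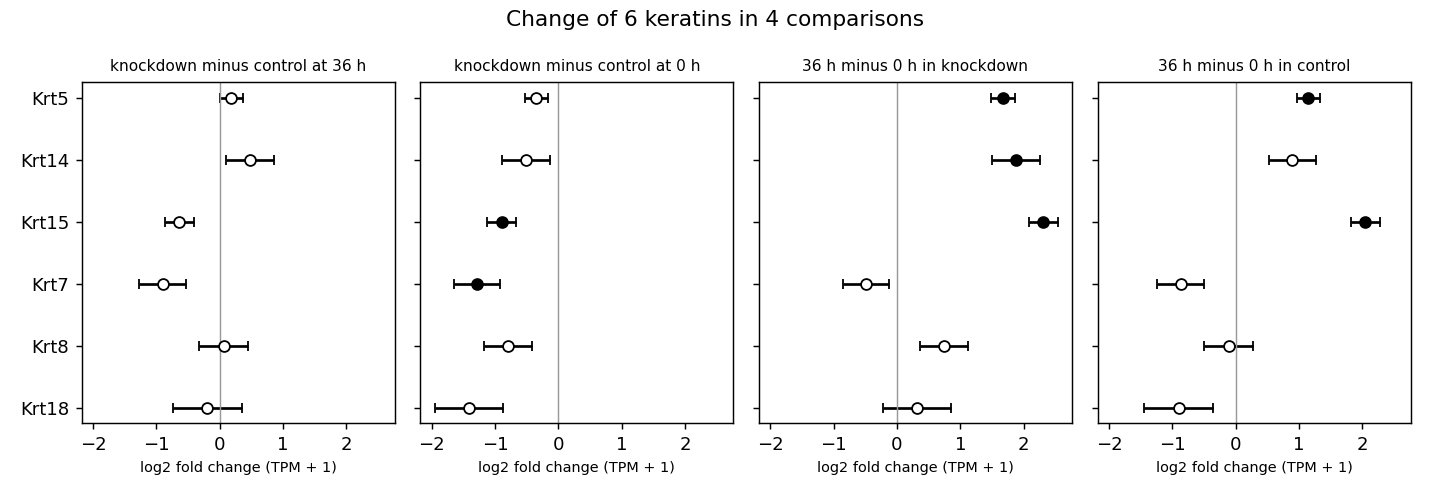
Log2 fold change on the log2(TPM + 1) scale (x axis) of 6 keratins (y axis) in 4 comparisons. Points are limma estimates, bars are 1 SE on either side, and filled points were called at an adjusted p under 0.05. Filled points stand at the basal keratins in the panels over time (Krt5, Krt14 and Krt15 in knockdown cells, Krt5 and Krt15 in control cells) and at Krt15 and Krt7 in the panel of the knockdown at 0 h.

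Before migration, at 0 h, knockdown cells had less Krt7 and less Krt15 than control cells. These were the 2 of 6 tested members called, both lower, where 14.6% of all tested genes were called lower (17.7% in either direction). The count stands near this background, and the median of all tested genes was itself shifted, with a log2 fold change of -0.41. Krt7 had 20.1, 6.53 and 22.8 TPM in knockdown cells, against 35.2, 35.5 and 40.1 TPM in control cells, and its log2 fold change was -1.28 (SE 0.369, adjusted p = 0.0365 by limma). Krt15 had 0.57, 0 and 0.23 TPM in knockdown cells, against 1.47, 1.43 and 1.06 TPM in control cells, and its log2 fold change was -0.89 (SE 0.229, adjusted p = 0.0244 by limma). Each knockdown library was under each control library for Krt7, Krt15 and Krt18, where 30.7% of all tested genes were so placed.

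With knockdown 0 h library 2 left out, the log2 fold changes at 0 h were -0.76 for Krt7 (adjusted p = 0.0129 by limma) and -0.73 for Krt15 (adjusted p = 0.0348 by limma), and Krt18 was called as well, at -0.55 (adjusted p = 0.0141 by limma). With all libraries Krt18 averaged 40.0 ± 27.5 TPM in knockdown cells and 82.2 ± 8.12 TPM in control cells (SD, n = 3 each), and its log2 fold change of -1.41 was not called (SE 0.542, adjusted p = 0.0886 by limma). Krt8 averaged 146 ± 78.6 TPM in knockdown cells and 221 ± 15.04 TPM in control cells (SD, n = 3 each), with a log2 fold change of -0.79 that was not called (SE 0.381, adjusted p = 0.153 by limma) and stood at -0.22 without knockdown 0 h library 2. Leaving out knockdown 0 h library 3, which had the highest Krt8 and Krt18 of its group, gave -1.14 for Krt8 (adjusted p = 0.0322 by limma) and -1.87 for Krt18 (adjusted p = 0.0211 by limma).

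The calls of Krt7 and Krt15 at 0 h depended on single libraries and settings. Krt15 was no longer called once control 0 h library 1 (adjusted p = 0.0910 by limma), 2 (0.0803) or 3 (0.0535) was left out. Krt7 was no longer called once control 0 h library 1 (adjusted p = 0.0983 by limma), 2 (0.0915) or 3 (0.107) was left out, without knockdown 36 h library 1 (0.0552), 2 (0.0551) or 3 (0.0541), and without control 36 h library 1 (0.0502) or 4 (0.0562). The log2 fold change of Krt7 stayed between -1.32 and -1.22 across these fits. Both calls were also lost without the filter on low values (adjusted p = 0.0737 for Krt15 and 0.0962 for Krt7 by limma) and when the 2 groups were fitted alone (0.136 and 0.186), and that of Krt15 with a filter of 5 TPM (0.0542).

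The abundant basal pair showed no called difference at 0 h. Krt5 averaged 1017 ± 230.0 TPM in knockdown cells and 1272 ± 108 TPM in control cells (SD, n = 3 each), and the log2 fold change was -0.34 (SE 0.184, adjusted p = 0.188 by limma), or -0.16 without knockdown 0 h library 2 (adjusted p = 0.403 by limma). Krt14 averaged 5830 ± 3138 TPM in knockdown cells and 7167 ± 100.4 TPM in control cells (SD, n = 3 each), and the log2 fold change was -0.50 (SE 0.377, adjusted p = 0.331 by limma). In Krt14, 2 of the knockdown libraries, at 7662 and 7621 TPM, stood above all control libraries and library 2, at 2206 TPM, below them. The sign of the Krt14 difference turned to 0.093 without library 2, and median-of-ratios scaling, which moved the median of all genes to 0.023, gave 0.18 for Krt5 and 0.016 for Krt14.

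At 36 h, knockdown and control cells did not differ by a call in any of the 6 tested members, where 2.53% of all tested genes were called. At an unadjusted p under 0.05, 2 of the 6 passed by limma, Krt7 and Krt15, as did 2345 of the 14426 tested genes. Krt7 had 11.4, 9.79 and 9.25 TPM in knockdown cells, against 23.5, 15.4 and 21.2 TPM in control cells, and its log2 fold change was -0.90 (SE 0.369, adjusted p = 0.249 by limma). Krt15 averaged 5.24 ± 1.24 TPM in knockdown cells and 8.59 ± 0.827 TPM in control cells (SD, n = 3 each), and its log2 fold change was -0.63 (SE 0.229, adjusted p = 0.184 by limma). Each knockdown library was under each control library for both, where 22% of all tested genes were so placed.

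Krt14 had the higher levels in knockdown cells. It averaged 18732 ± 2696 TPM in knockdown cells and 13388 ± 1035 TPM in control cells at 36 h (SD, n = 3 each), a ratio of 1.40, with all knockdown libraries above all control libraries, as were 14.8% of all tested genes. The log2 fold change of 0.48 was not called (SE 0.377, adjusted p = 0.626 by limma). Krt5 averaged 3207 ± 304 TPM in knockdown cells and 2821 ± 302 TPM in control cells, and its groups overlapped (log2 fold change 0.19, adjusted p = 0.723 by limma). Krt8 averaged 216 ± 37.5 TPM in knockdown cells and 204 ± 9.91 TPM in control cells, and Krt18 averaged 38.05 ± 4.72 TPM in knockdown cells and 43.5 ± 2.64 TPM in control cells (SD, n = 3 each). Their groups overlapped too, with log2 fold changes of 0.063 (adjusted p = 0.974 by limma) and -0.20 (adjusted p = 0.928 by limma).

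The count of calls at 36 h depended on knockdown 0 h library 2, which is in neither of the groups compared but shares the model's estimate of the spread. Without it, limma called Krt7 (adjusted p = 0.00420), Krt14 (adjusted p = 0.0135) and Krt15 (adjusted p = 0.0461) at 36 h with the same log2 fold changes, did not call Krt5 (0.284), Krt8 (0.781) or Krt18 (0.280), and called 2683 genes in all against 365 with it. Krt7 was also called under median-of-ratios scaling (-0.80, adjusted p = 0.0420 by limma), and both Krt7 (0.0238) and Krt14 (0.0476) when the 36 h groups were fitted alone.

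The change over time was not shown to differ between knockdown and control cells for any member. The differences between the changes, knockdown minus control on the log2 scale, were 0.53 for Krt5, 0.98 for Krt14, 0.26 for Krt15, 0.38 for Krt7, 0.85 for Krt8 and 1.22 for Krt18. None was called (adjusted p between 0.595 and 0.701 by limma), none had an unadjusted p under 0.05, and 0% of all tested genes were called, with 766 of them at an unadjusted p under 0.05. Without knockdown 0 h library 2 the difference for Krt7 turned to -0.14, those of the other 5 lay between 0.10 and 0.38, and none was called.

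Ratios between keratins within a library do not depend on how libraries are scaled to each other, and the luminal level per basal level took separate ranges in the 4 groups. The luminal keratins held 12.01 ± 0.338 TPM per 1000 TPM of basal keratin in knockdown cells at 36 h (11.7 to 12.4) and 16.6 ± 0.511 in control cells at 36 h (16.3 to 17.1). They held 28.4 ± 4.17 in knockdown cells at 0 h (24.4 to 32.7) and 40.4 ± 3.42 in control cells at 0 h (37.4 to 44.1, SD, n = 3 each). No pair of groups overlapped. Knockdown 0 h library 2, at 24.4, was the lowest of the 0 h libraries, and the other libraries of its group, at 28.2 and 32.7, were still below all control libraries at 0 h. As a share of the 7 members, basal keratins made up 98.8% in knockdown cells at 36 h, 98.4% in control cells at 36 h, 97.2% in knockdown cells at 0 h and 96.1% in control cells at 0 h. These ratios are given as a description with no test, and they rest mainly on Krt14, most of the basal sum, and Krt8, most of the luminal sum.

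The proportions within the luminal group also differed between groups, though not all of their ranges were separate. The ratio of Krt8 to Krt18, as TPM over TPM, was 5.65 ± 0.330 in knockdown cells at 36 h and 4.71 ± 0.334 in control cells at 36 h, against 4.54 ± 1.98 in knockdown cells at 0 h and 2.70 ± 0.127 in control cells at 0 h (SD, n = 3 each). In knockdown cells at 0 h, library 2 had 6.82 and the others 3.24 and 3.56, all above the highest control value at 0 h, 2.84. That range took in those of knockdown cells at 36 h (5.36 to 6.01) and control cells at 36 h (4.38 to 5.05). The ratio of Krt8 to Krt7 was 21.2 ± 2.04 in knockdown cells at 36 h, 10.5 ± 1.86 in control cells at 36 h, 8.84 ± 0.272 in knockdown cells at 0 h and 5.99 ± 0.1495 in control cells at 0 h (SD, n = 3 each). Here knockdown 0 h library 2, at 8.80, lay between the other libraries of its group, at 8.59 and 9.13.

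The ratio within the basal pair was less separated. Krt14 over Krt5 was 5.82 ± 0.300 in knockdown cells at 36 h, 4.76 ± 0.251 in control cells at 36 h, 5.44 ± 2.28 in knockdown cells at 0 h and 5.67 ± 0.542 in control cells at 0 h (SD, n = 3 each). The 36 h groups did not overlap. The 0 h groups did, with knockdown 0 h library 2 at 2.87 and the other libraries of its group at 6.24 and 7.21.

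**Figure D3:**
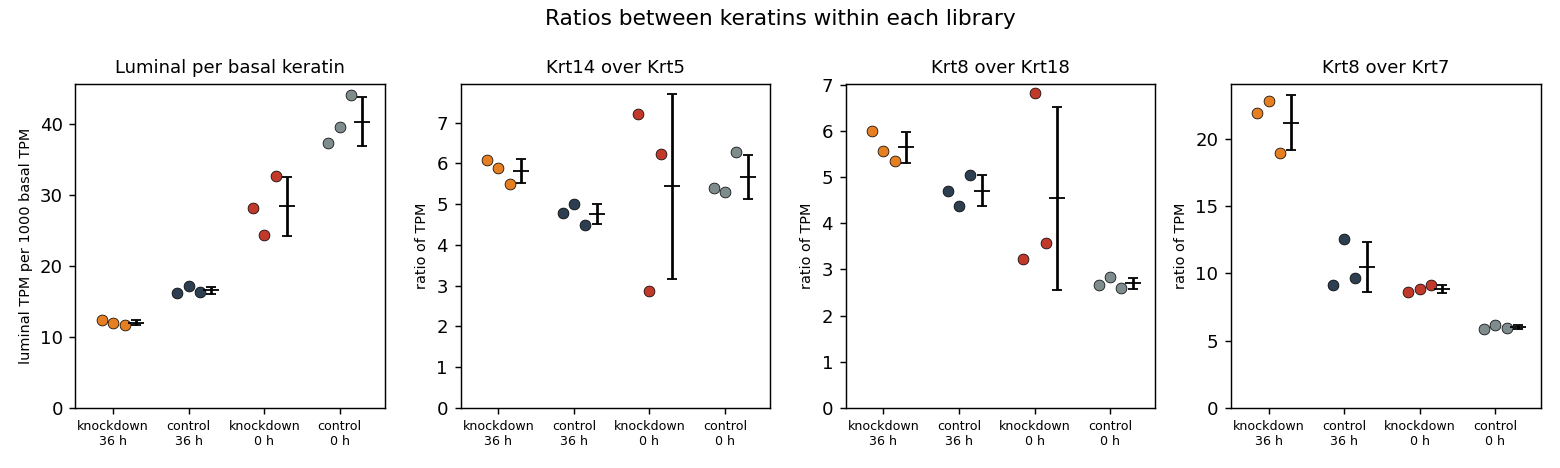
Ratios of TPM between keratins within each library (y axes) in knockdown and control cells at 36 h and at 0 h. Points are libraries, and the dash and bar beside them are the mean and SD of 3 libraries. Luminal TPM per 1000 basal TPM lay between 11.7 and 12.4 in knockdown cells and between 16.3 and 17.1 in control cells at 36 h, and the ratio of Krt8 to Krt7 was highest in knockdown cells at 36 h.

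The lineage keratins stand among 55 keratin genes in the table, of which 16 were tested. Besides the members, 8 keratins averaged 5 TPM or more in a group. They were Krt6a, Krt6b, Krt16 and Krt17, which are known as keratins of wounded and stressed epithelium, and Krt10, Krt42, Krt79 and Krt80. Over time, Krt6a, Krt6b, Krt16 and Krt42 rose in knockdown cells, where 0.998% of all tested genes were called higher, and Krt6a, Krt6b and Krt16 rose in control cells, where 0.25% were. On the log2 scale Krt6a changed by 3.44 in knockdown cells and by 1.71 in control cells, Krt6b by 3.03 in knockdown cells and by 1.85 in control cells, and Krt16 by 3.84 in knockdown cells and by 1.80 in control cells. With knockdown 0 h library 2 left out, these rises in knockdown cells were 3.35 for Krt6a, 2.89 for Krt6b and 3.36 for Krt16, all called, and Krt42 was called in control cells as well (0.78, adjusted p = 0.0216 by limma). The value of Krt15, the lineage keratin with the largest log2 fold change over time, was 2.31 in knockdown cells and 2.05 in control cells.

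At 36 h Krt16 had 654, 634 and 477 TPM in knockdown cells, against 60.5, 20.2 and 51.4 TPM in knockdown cells at 0 h. Krt6a had 809, 810.4 and 579 TPM in knockdown cells at 36 h, against 399.6, 359 and 382 TPM in control cells at 36 h, and it was the 1 keratin of the 8 called between knockdown and control at that time (log2 fold change 0.93, adjusted p = 0.0325 by limma), where 2.53% of all tested genes were called. Krt16 was called then too without knockdown 0 h library 2 (0.57, adjusted p = 0.00931 by limma). At 0 h 5 of the 8 were called lower in knockdown cells, namely Krt6a, Krt6b, Krt16, Krt42 and Krt80, where 14.6% of all tested genes were called lower, with log2 fold changes between -1.47 and -0.80. The count was 6 lower and 2 higher without knockdown 0 h library 2, against 2377 lower and 973 higher of the 14426 tested genes. Under median-of-ratios scaling 3 were called lower and 1 higher, against 1469 lower and 1249 higher of all tested genes.

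**Figure D4:**
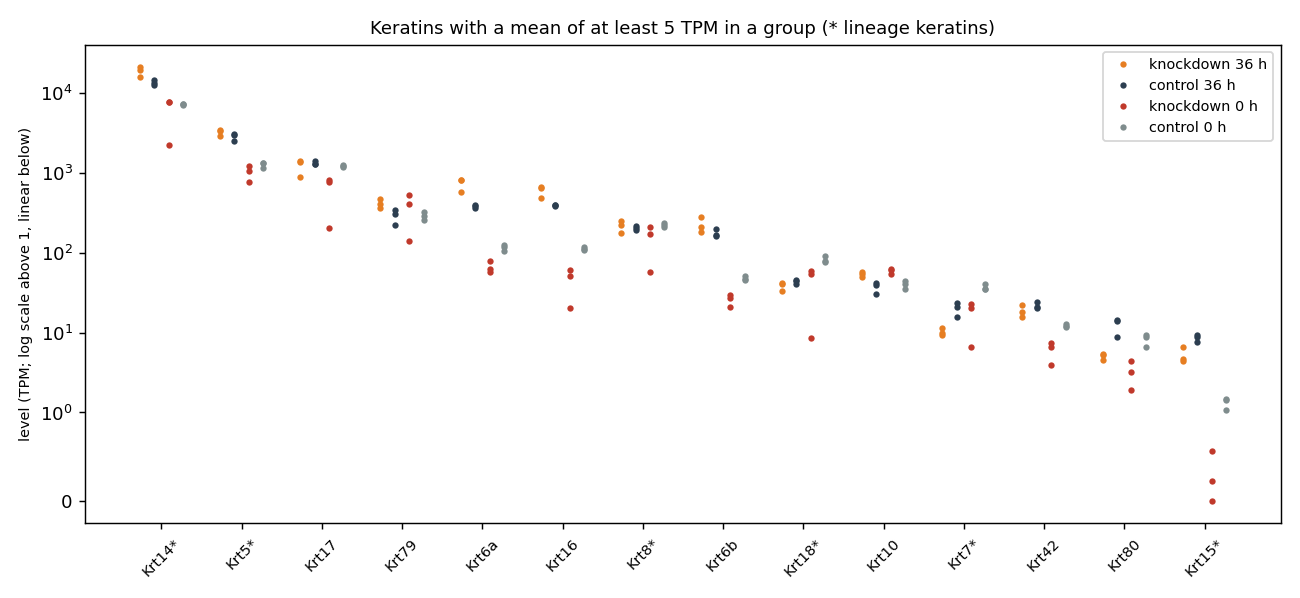
Level in TPM (y axis, log scale above 1 TPM and linear below) of the 6 tested lineage keratins, marked with an asterisk, and of the 8 other keratins averaging 5 TPM or more in a group, ordered by mean level. Each point is 1 library, in knockdown and control cells at 36 h and at 0 h. Krt14 lay above all other keratins in each library, and Krt16 and Krt6a reached 477 to 810.4 TPM in knockdown cells at 36 h.

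Some of these keratins share coding sequence with the basal members, which bears on how reads are assigned. How the authors treated reads that match more than 1 gene is not given in the sources used here. In the GENCODE M21 coding sequences (GRCm38), the longest identical run of Krt14 with Krt16 was 134 bases, at coding bases 306 to 439 of Krt14, and 33.1% of Krt14's 1452 coding bases lay in runs of at least 50 bases shared with Krt16. Of Krt5's 1740 coding bases, 14.3% lay in such runs shared with Krt6a. The shared run of Krt14 and Krt16 on the coding strand, on chromosome 11, is printed to show a stretch in which the 2 genes cannot be told apart.
Krt14 and Krt16: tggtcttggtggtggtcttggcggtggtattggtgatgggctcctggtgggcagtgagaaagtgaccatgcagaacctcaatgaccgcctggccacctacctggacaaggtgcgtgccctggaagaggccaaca
Krt14 shared 17.3% of its coding bases in such runs with Krt17, and Krt5 shared 8.45% with Krt6b. Krt15 shared 1 run of 50 bases with Krt17, 3.65% of its 1368 coding bases, and Krt17 had 204 to 1419 TPM beside the 0 to 9.35 TPM of Krt15. For Krt7, Krt8, Krt18 and Krt19 no run with another of the compared keratins was longer than 35 bases. Levels of Krt14, Krt5 and Krt15, and of Krt16, Krt17, Krt6a and Krt6b beside them, are uncertain for this reason. The shares are of coding bases and do not measure the error of a level, which was not tested. A processed copy of Krt8 in the table had at most 0.09 TPM.

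Other genes of both lineages were lower in knockdown cells at 0 h. Of 25 basal genes other than keratins, 21 were tested and 11 were lower in knockdown cells at 0 h, with a median log2 fold change of -1.09. Of 25 luminal genes other than keratins, 20 were tested and 11 were lower, with a median of -0.85, beside -0.41 for all tested genes, of which 14.6% were called lower. The basal genes included Cdh3, the cell adhesion protein P-cadherin (1.48 ± 0.683 TPM in knockdown cells and 6.49 ± 1.21 TPM in control cells, SD, n = 3 each, log2 fold change -1.62, adjusted p = 0.00706 by limma), and Cd44, a hyaluronan receptor (log2 fold change -1.05, adjusted p = 0.0108 by limma). The luminal genes included Elf3, an epithelial ETS factor (4.08 ± 2.01 TPM in knockdown cells and 12.8 ± 1.01 TPM in control cells, SD, n = 3 each, log2 fold change -1.53, adjusted p = 0.0118 by limma), and Areg, an EGF receptor ligand (log2 fold change -1.12, adjusted p = 0.0108 by limma). Under median-of-ratios scaling Cd44 (adjusted p = 0.0679) and Areg (0.125) were no longer called. Under that scaling 6 basal and 7 luminal genes were called lower at 0 h, as were 1469 of the 14426 tested genes. Without knockdown 0 h library 2 there were 9 and 9 lower and 1 higher in each list. Of all tested genes, 2377 were then called lower and 973 higher.

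At 36 h, 1 of the 21 tested basal genes was lower in knockdown cells and no luminal gene was called by limma. Of all tested genes, 2.53% were called. At an unadjusted p under 0.05 were 7 of the 20 luminal genes, and 2345 of the 14426 tested genes. The basal gene was Vim, the mesenchymal intermediate filament vimentin, with 25.8 ± 3.30 TPM in knockdown cells and 55.55 ± 3.598 TPM in control cells (SD, n = 3 each, log2 fold change -1.08, adjusted p = 0.0334 by limma). At 36 h 6 basal and 7 luminal genes were called lower, and 1 of each higher, when knockdown 0 h library 2 was left out. That fit called 2683 of the 14426 tested genes in either direction. Over time in knockdown cells, 1 basal and 2 luminal genes were called higher, as were 0.998% of all tested genes. The basal gene was Igfbp3, an IGF binding protein (log2 fold change 2.14, adjusted p = 0.00887 by limma). The luminal genes were Cd24a, a surface glycoprotein (1.51, adjusted p = 0.00603 by limma), and Areg (1.15, adjusted p = 0.0412 by limma). Areg was not called under median-of-ratios scaling (0.78, adjusted p = 0.200 by limma). In control cells no basal gene was called over time by limma (4 of the 21 at an unadjusted p under 0.05, as were 803 of 14426 tested genes). Igfbp3 was called under median-of-ratios scaling (1.13, adjusted p = 0.0117 by limma) and without knockdown 0 h library 2 (1.12, adjusted p = 8.23e-04). Without that library, Vim (0.87, adjusted p = 0.0182) and the luminal Cd24a (0.75, adjusted p = 0.0261) were called higher, and 4 luminal genes lower. Epcam was among these 4 (-0.73, adjusted p = 4.06e-04 by limma). The number of all tested genes called over time also moved with the library left out, as given under the dependence on the processing. With all libraries, the luminal milk protein Ltf, lactoferrin, was called lower (-1.89, adjusted p = 0.0342 by limma), where 0.36% of all tested genes were called. Ltf had 3.35, 3.49 and 3.76 TPM at 0 h and 0.81, 0 and 0 TPM at 36 h. Ltf would not have passed the filter without these control 0 h libraries, so the filter itself favours a fall.

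The regulators that define the lineages were measured as well. Trp63, the p63 factor that maintains basal cells and drives Krt5 and Krt14, had 64.2, 75.0 and 61.0 TPM in knockdown cells at 36 h, against 109.9, 71.6 and 96.4 TPM in control cells at 36 h. At 0 h it had 31.4, 18.2 and 52.8 TPM in knockdown cells, against 63.7, 63.1 and 60.1 TPM in control cells. The groups did not overlap at 0 h, where 30.7% of all tested genes were lower without overlap. Trp63 was not called there (log2 fold change -0.97, adjusted p = 0.0560 by limma), nor without knockdown 0 h library 2, where the value was -0.60 (adjusted p = 0.0781 by limma). Gata3, a transcription factor of luminal cells, averaged 29.5 TPM in knockdown cells and 27.4 TPM in control cells at 36 h, and 18.9 TPM in knockdown cells and 21.5 TPM in control cells at 0 h. Elf5, a factor of luminal progenitors, averaged 7.40 TPM in knockdown cells and 8.36 TPM in control cells at 36 h, and 7.92 TPM in knockdown cells and 8.20 TPM in control cells at 0 h. Neither was called in any comparison, and the log2 fold change of Elf5 at 0 h was -0.21 with all libraries and 0.31 without knockdown 0 h library 2. Epcam, an adhesion protein of luminal cells, averaged 605 ± 340.2 TPM in knockdown cells and 1124 ± 33.1 TPM in control cells at 0 h (SD, n = 3 each), and its log2 fold change of -1.12 was not called (adjusted p = 0.0702 by limma). Without knockdown 0 h library 2, which had 214 TPM beside 769 and 833 TPM in the others of its group, the value was -0.49 and was called (adjusted p = 0.00119 by limma). Acta2, the smooth muscle actin of contractile myoepithelium, had at most 0.09 TPM in any library and was not tested. Of 10 milk protein genes, 3 were tested. Wfdc18, a whey acidic protein family member, fell over time in knockdown cells (log2 fold change -1.71, adjusted p = 0.00182 by limma) and in control cells (-1.23, adjusted p = 0.0234 by limma). At 36 h it was lower in knockdown cells (252 ± 30.1 TPM in knockdown cells and 542 ± 17.6 TPM in control cells, SD, n = 3 each, log2 fold change -1.11, adjusted p = 0.0214 by limma). Under median-of-ratios scaling its calls at 36 h (adjusted p = 0.131) and over time in control cells (0.232) were lost. Btn1a1, butyrophilin of the milk fat globule, was higher in knockdown cells at 36 h (17.5 ± 3.62 TPM in knockdown cells and 6.32 ± 1.35 TPM in control cells, SD, n = 3 each, log2 fold change 1.33, adjusted p = 0.0307 by limma) and rose over time in knockdown cells (1.91, adjusted p = 0.00669 by limma). Xdh, a xanthine dehydrogenase of the milk fat globule, was lower in knockdown cells at 0 h (-0.98, adjusted p = 0.0146 by limma), but not under median-of-ratios scaling (adjusted p = 0.111).

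Many genes whose proteins tie keratin filaments to junctions were lower in knockdown cells at 0 h. Of 16 such genes, 15 were tested, and 9 were called lower and none higher, with a median log2 fold change of -1.09, beside 14.6% called lower and a median of -0.41 for all tested genes. They included Jup, plakoglobin of the desmosome (287 ± 146 TPM in knockdown cells and 703 ± 51.2 TPM in control cells, SD, n = 3 each, log2 fold change -1.45, adjusted p = 0.0210 by limma), Dsc2, a desmosomal cadherin (-1.79, adjusted p = 0.0229), and Plec, the linker plectin (-1.28, adjusted p = 0.0244). Once knockdown 0 h library 2 was left out, the values of Jup and Dsc2 were -0.95 and -1.18, both called, and under median-of-ratios scaling Plec was not called (adjusted p = 0.127). No gene of this list was called by limma at 36 h (6 at an unadjusted p under 0.05) or over time in knockdown cells (5) or control cells (0). Of the 14426 tested genes, 2345, 2363 and 803 had such an unadjusted p in these comparisons. Under median-of-ratios scaling 5 of the 15 were called lower at 0 h, as were 1469 of the 14426 tested genes. Without knockdown 0 h library 2 there were 4 lower at 0 h, against 2377 of all tested genes. That fit had 4 lower at 36 h, where 2683 of all tested genes were called in either direction.

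Transcription factors known to act on keratin genes were also among the genes with lower levels at 0 h. All 16 were tested, 8 were called lower in knockdown cells and none higher, with a median log2 fold change of -0.86, beside 14.6% called lower and a median of -0.41 for all tested genes. They included Jun, a subunit of AP-1 (17.3 ± 8.72 TPM in knockdown cells and 90.4 ± 19.96 TPM in control cells, SD, n = 3 each, log2 fold change -2.42, adjusted p = 0.00350 by limma), Ets2 (-1.52, adjusted p = 0.00541) and Ets1 (-1.89, adjusted p = 0.0172), both ETS factors. None was called by limma at 36 h (6 at an unadjusted p under 0.05) or over time in knockdown cells (3) or control cells (1). Of the 14426 tested genes, 2345, 2363 and 803 had such an unadjusted p in these comparisons. With knockdown 0 h library 2 left out, 9 were called lower and 1 higher at 0 h, and 6 lower and 1 higher at 36 h. Of the 14426 tested genes, that fit called 2377 lower and 973 higher at 0 h, and 2683 in either direction at 36 h. Under median-of-ratios scaling 7 were called lower and 1 higher at 0 h, and 4 lower and 1 higher at 36 h. Of all tested genes, 1469 were then called lower and 1249 higher at 0 h, and 857 in either direction at 36 h.

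The members differed in which other genes their levels followed most closely across the 12 libraries. Likeness was the root mean square difference between log2(TPM + 1) values, each gene centred on its own mean, over 9348 tested genes averaging 5 TPM or more, so that a smaller value means a closer pattern. Krt5 was closest to Spink5, a serine protease inhibitor of epithelia (0.213), and Krt15 to Sostdc1, a secreted BMP and WNT modulator (0.265). Krt7 was closest to Bhlhe40, a helix-loop-helix repressor (0.113), Krt8 to Phlda3, a p53 target (0.0962), and Krt18 to Arpc1b, a subunit of the ARP2/3 actin complex (0.122). The median over all candidates was between 0.399 for Krt8 and 1.10 for Krt15. These values describe libraries of 4 groups and carry the low library 2 of the knockdown at 0 h.

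Sostdc1 shows what closeness to Krt15 looked like. It had 235, 276 and 221 TPM in knockdown cells at 36 h, 355, 302 and 300.5 TPM in control cells at 36 h, 60.1, 28.9 and 48.8 TPM in knockdown cells at 0 h and 99.7, 93.7 and 111 TPM in control cells at 0 h. Like Krt15 it was lower in all knockdown libraries than in all control libraries at each time, as were 30.7% of all tested genes at 0 h and 22% at 36 h. Sostdc1 was picked for its closeness to Krt15 in these same libraries, so the shared placing is no separate result. Among the members themselves, Krt5 and Krt14 had the closest patterns (0.322), followed by Krt7 with Krt18 (0.422) and Krt8 with Krt18 (0.443), and Krt15 with Krt7 the most distant (1.47).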

How the data were processed

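Messenger RNA libraries of 12 samples were analysed, grouped by the sample titles. The authors deposited TPM (length-scaled transcript abundance) per gene. Per the submitters' processing notes, FastQC, cutadapt 1.9.1, HISAT2 2.2.1, HTSeq, DESeq2 and the build GRCm39 were named, without their roles. Read counts were not recovered, so depth is unknown and no counting error can be given. The authors' deposited group means were not used, because the control 36 h mean covers libraries 1 and 3 only, within 1e-04 TPM, and 1 further column of per-sample values was not used.

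Genes reaching 1 TPM in 3 or more of 12 libraries were fitted on log2(TPM + 1) in limma 3.58.1 (lmFit, contrasts.fit, eBayes with trend; R 4.3.3) with 1 mean per group and 8 residual degrees of freedom. P-values were two-sided and Benjamini-Hochberg adjusted over all tested genes. The fit was also run on simulated data with independent noise and, for each gene, the same spread in all libraries. Those data held no library that stands apart, so the run does not bear on such a library. Single genes were also tested by an exact permutation test. Named genes were the members, Snai1, 5 lineage genes, the other keratins averaging 5 TPM or more in a group, called genes of the lists with the lowest adjusted p, and the gene closest in pattern to each member, which for Krt14 is not reported here. The members and lists were chosen with earlier results of these data known. No 2 libraries were identical. Promoters came from RefSeq (GRCm38.p6) and coding sequences from GENCODE M21. Alternatives varied the pseudocount, filter, scaling, mitochondrial genes, replicate block, samples in the fit and libraries left out. Fits of the named genes that are no members, without knockdown 0 h library 2 and under median-of-ratios scaling, were chosen after seeing the data.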

Additional observations from a re-analysis of the deposited data

How the results depend on the processing

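Across 22 alternatives, 654 values of the 6 members gave 564 with the same direction and side of the threshold, 48 that lost a call, 26 that gained one and 16 that changed sign. Read depth is unknown, so it cannot be said which levels, above all of Krt15 and Krt19, counting error limits.

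For knockdown minus control at 0 h, the 2550 genes called became 1258 without a filter, 1011 with the replicate block, 16 with only the groups compared and 747 to 5853 with 1 library left out. The 2 members called became 0 without a filter, 1 with a filter of 5 TPM, 0 with the replicate block, 0 with only the groups compared, 1 without knockdown 0 h library 2 under median-of-ratios scaling, and 0 to 4 with 1 library left out. At 36 h, 365 genes became 192 without a filter, 857 under median-of-ratios scaling, 933 under quantile normalization, 5 with the replicate block, 2176 with only the groups compared, 1439 without both knockdown 0 h library 2 and control 36 h library 4, 2740 without knockdown 0 h library 2 under median-of-ratios scaling, and 24 to 2683 with 1 library left out. The 0 members called became 1, 2, 1 and 2 under median-of-ratios scaling, with only the groups compared, without both libraries, and without knockdown 0 h library 2 under median-of-ratios scaling, and 0 to 3 with 1 library left out.

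Over time in knockdown cells, 162 genes became 40 with the replicate block, 18 with only the groups compared, 255 without both libraries, 413 without knockdown 0 h library 2 under median-of-ratios scaling and 47 to 1541 with 1 library left out. The 3 members called became 0 with only the groups compared, 5 without knockdown 0 h library 2 under median-of-ratios scaling, and 2 to 4 with 1 library left out. Over time in control cells, 52 genes became 88 under median-of-ratios scaling, 111 under quantile normalization, 6 with the replicate block, 247 with only the groups compared, 159 without both libraries, 391 without knockdown 0 h library 2 under median-of-ratios scaling and 17 to 397 with 1 library left out. The 2 members called became 1 with a pseudocount of 0.1, 1 without a filter, 0 with the replicate block, 4 with only the groups compared, 4 without both libraries, 5 without knockdown 0 h library 2 under median-of-ratios scaling, and 1 to 5 with 1 library left out. For the difference between the changes, 0 genes became 1 without a filter, under median-of-ratios scaling, under quantile normalization and with the replicate block, 10 without both libraries, 6 without knockdown 0 h library 2 under median-of-ratios scaling and 0 to 11 with 1 library left out, and no member was called in any of these.

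Of the genes called at 0 h, 17.5% were higher, against 46% under median-of-ratios scaling and 40.9% under quantile normalization. Over time, 88.9% were higher in knockdown cells and 69.2% in control cells, against 73.3% and 56.8% under median-of-ratios scaling.

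The changes of sign at 0 h were Krt5 at 0.18 and Krt14 at 0.016 under median-of-ratios scaling, Krt14 at 0.093 without knockdown 0 h library 2 (-0.81 to 0.093 with 1 library left out) and without both libraries, and Krt5 at 0.049 and Krt14 at 0.30 without library 2 under that scaling. At 36 h they were Krt18 at 0.045 with the replicate block and Krt8 at -0.047 without knockdown 36 h library 1 (-0.047 to 0.21 with 1 library left out). Over time in knockdown cells Krt18 was -0.059 under median-of-ratios scaling, -0.0094 under quantile normalization, -0.55 without knockdown 0 h library 2 (-0.55 to 0.78 with 1 library left out) and without both libraries, and -0.64 without library 2 under that scaling. The difference for Krt7 was -0.14 without knockdown 0 h library 2 (-0.14 to 0.69 with 1 library left out), -0.094 without both libraries and -0.24 without library 2 under that scaling. The cause of these changes was not tested.

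With all measured keratins in the denominator, the basal share was 86.2% in knockdown cells and 84.8% in control cells at 36 h, and 83.5% in knockdown cells and 79.4% in control cells at 0 h. Libraries with the same replicate number did not deviate together (median correlation 0.00911, 2 of 15 pairs over 0.1), so the numbers were not taken as pairs.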

Other observations

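Besides the comparisons above, the 8 other abundant keratins gave differences between the changes over time, knockdown minus control on the log2 scale, of 2.04 for Krt16 and 1.73 for Krt6a. Neither was called with all libraries (adjusted p = 0.516 and 0.127 by limma). Without knockdown 0 h library 2 the differences were 1.57 for Krt16 (adjusted p = 0.0104 by limma) and 1.64 for Krt6a (adjusted p = 0.0243 by limma), and both were called. Krt10, a keratin of differentiating epidermis, had 49.0, 56.5 and 54.1 TPM in knockdown cells at 36 h, against 30.1, 41.8 and 39.3 TPM in control cells at 36 h. At 0 h it had 60.0, 61.6 and 54.3 TPM in knockdown cells, against 35.1, 40.1 and 44.0 TPM in control cells. The groups did not overlap at either time, and Krt10 was called at neither (log2 fold change 0.52, adjusted p = 0.186 at 36 h, and 0.55, adjusted p = 0.0629 at 0 h, by limma). At 36 h, 14.8% of all tested genes were higher without overlap. Without knockdown 0 h library 2 Krt10 was called at both times (adjusted p = 0.0265 at 36 h and 0.0369 at 0 h by limma). Krt80 had 5.36, 5.16 and 4.58 TPM in knockdown cells at 36 h, against 14.5, 8.68 and 13.9 TPM in control cells at 36 h, with a log2 fold change of -1.12 and an adjusted p of 0.0571 by limma, or 0.00643 without knockdown 0 h library 2.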
